A study of Mus musculus with 3 samples.

Results

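The clustered protocadherin genes lie side by side on mouse chromosome 18, and the H3K4me3 peaks around them in the hippocampus are described here. H3K4me3 is the trimethylation of lysine 4 on histone H3, a mark of active and poised promoters, measured by chromatin immunoprecipitation and sequencing (ChIP-seq). Members were chosen by position alone: every deposited peak that overlapped chromosome 18 from 37080000 to 38005000 (mm9, a window of 925 kb). Since a peak exists only where signal was called, the number of peaks, their widths, scores and spacing are given as a description. The window held 22 of the 18515 peaks of the wild-type library and 27 of the 19631 peaks of the Huntington's disease library. Joined where they overlapped, they formed 29 regions of the 20211 in the whole series, numbered 1 to 29 from left to right below.

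Both libraries came from adult male C57/DBA F1 hybrid mice, and each used hippocampi pooled from 3 animals. The wild-type (WT) library came from littermates without the transgene. The N171-82Q (HD) library came from mice that carry a transgene for an N-terminal fragment of huntingtin with an expanded glutamine tract, driven by prion promoter sequence, so that the fragment is made mainly in neurons. An input DNA library also belongs to the series and was not analysed here. The whole hippocampus holds many types of neurons and glia, and a weaker mark in all cells cannot be told apart from a mark in fewer cells. The peak lists carry no gene names, so the tissue label was not checked against marker genes.

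Clustered protocadherins are cell adhesion proteins that pair with the same isoform on a facing membrane and give neurons a surface identity. In the Pcdha and Pcdhg clusters, a row of variable first exons, each with its own promoter, is spliced to a shared set of constant exons, while Pcdhb genes are made of a single exon. Most variable promoters are switched on in a stochastic way in only some neurons, through binding of CTCF and cohesin and loss of DNA methylation, and the C-type genes at the ends of the Pcdha and Pcdhg rows are expressed in most neurons. In the RefSeq table of assembly GRCm38.p6, used here for names and order only, 14 Pcdha genes (Pcdha1 to Pcdhac2) are followed by 22 Pcdhb genes (Pcdhb1 to Pcdhb22) and 22 Pcdhg genes (Pcdhga1 to Pcdhgc5, of which 21 are protein-coding). Between the last Pcdhb and the first Pcdhg gene that table has 2 protein-coding genes of other families, Slc25a2, a mitochondrial carrier of basic amino acids, and Taf7, a subunit of the general transcription factor TFIID. Peaks were not assigned to single genes, because no annotation of the mm9 build was used here, so a peak named below may lie at a protocadherin or at another gene of the window.

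The score that the authors deposited for each peak has the pattern of minus 10 times the log10 p-value of the peak caller MACS. It starts at 50.01 in both lists and grows with sequencing depth, which is unknown for either library. Scores were therefore read only within a list. With 1 library per genotype, differences between WT and HD have no replicate check, and no test was possible. Per the labels, the raw reads of the WT library also belong to an earlier deposit; a batch, if there was one, and the genotype cannot be told apart. Intervals in brackets are exact 95% binomial intervals for shares and 95% order-statistic intervals for medians, and both cover counting error over peaks only.

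The locus was dense in H3K4me3 peaks, and most of them were narrow and weak. The 22 WT and 27 HD peaks compare with a median of 5 peaks in each list over 2841 non-overlapping tiles of the same length across the genome; 131 of these tiles (4.61%) held at least 22 WT peaks and 81 (2.85%) at least 27 HD peaks. The windows of equal length directly to the left and right held 22 and 22 WT peaks and 22 and 24 HD peaks, so the neighbourhood on chromosome 18 was as rich in WT peaks. The median peak width of the locus was, however, below those of both neighbours in both lists, though its interval overlapped theirs. Peaks of 4 kb or more did not follow this in WT, with 3 in the locus and 1 in each neighbour. In HD there were 0 in the locus, 0 in the left neighbour and 1 in the right.

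In WT the median width was 1498 bp (1050 to 2189 bp) in the protocadherin window, 2086 and 1965 bp in the left and right neighbours and 2268 bp in the whole list. In HD it was 1289 bp (969 to 2029 bp), against 2106, 1771 and 2054 bp. Among the genome tiles with at least 10 peaks, 16 of 669 (2.39%) had a WT median width as small as this, and 14 of 726 (1.93%) an HD one. The peaks covered 43.4 kb of the window in WT and 44.6 kb in HD, 4.69% and 4.82% of its length.

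Scores were low in the same way. The median was 121 (75.3 to 501) in WT, against 843 in the whole WT list, and 101 (72.9 to 244) in HD, against 1144 in the whole HD list. In the lowest 25% of the scores of their own list lay 15 of 22 WT peaks, 68.2%, and 19 of 27 HD peaks, 70.4%. Scores below 100 were found for 10 WT peaks, 45.5% (24.4 to 67.8%), and 13 HD peaks, 48.1% (28.7 to 68.1%), where the whole lists had 15.0% and 14.6%. Only 5 WT peaks and 4 HD peaks reached the median score of their list. Low scores were not limited to the window. The left and right neighbours had median scores of 901 and 291 in WT, and 1417 and 283 in HD. The intervals of the right neighbour, 105 to 1431 in WT and 122 to 1279 in HD, overlapped those of the window.

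**Figure D1:**
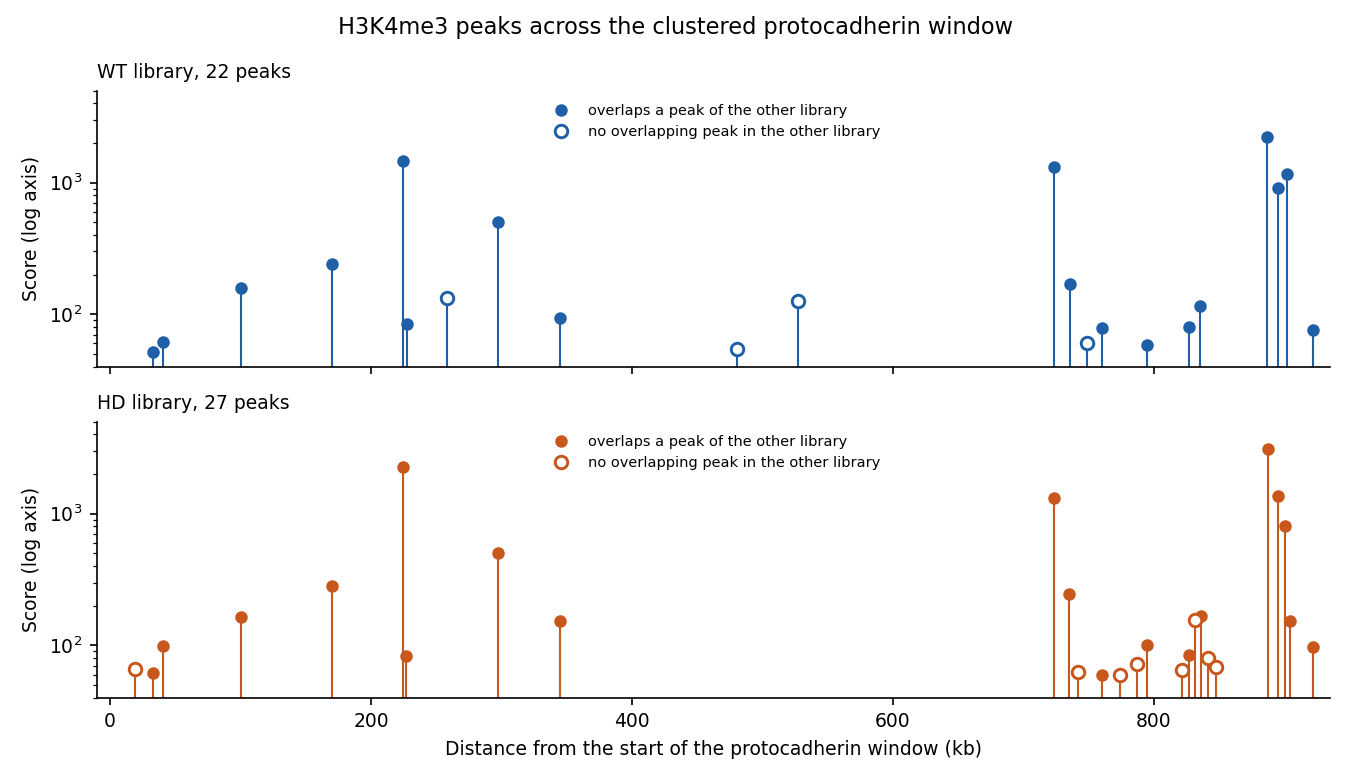
Each stem is 1 peak at its distance from the start of the 925 kb window (kb), and its height is the authors' score on a log axis, with WT above and HD below; scores are not comparable between the panels. Open circles mark the 4 WT and 8 HD peaks with no overlapping peak in the other library, and the middle of the HD panel, without called peaks, is its 377 kb gap.

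A few strong, wide regions stood among these weak peaks, and they were the same regions in both libraries. In each list the 5 widest members were also the 5 highest scoring, and in both lists these lay in regions 6, 12, 26, 27 and 28. These 5 peaks held 47.3% of the WT covered length and 37.4% of the HD covered length. The HD share leaves out a second HD peak in region 28, 2029 bp wide, whose place the single WT peak covers. The other 17 WT peaks had a median width of 1238 bp and scores of at most 501.07, and the other 22 HD peaks had a median width of 1099 bp and scores of at most 502.09.

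Region 26 had the highest score of the window in both lists. Its WT peak, at 37964970 to 37969106, was 4137 bp wide with a score of 2229.48, above 89.3% of the WT list. Its HD peak, at 37965458 to 37969264, was 3807 bp wide and scored 3100, a value that 2184 HD peaks and 448 WT peaks share, so ranks within that tie carry no information. Region 27 followed to the right, with a WT peak of 2699 bp (score 911.47) and an HD peak of 2992 bp (score 1375.08). The gap between the peaks of regions 26 and 27 was 4.52 kb in WT and 4.26 kb in HD.

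Region 28, from 37978436 to 37985736, was the widest region of the locus and the 1 place where the libraries divided the mark differently. In WT it was a single peak of 7301 bp with a score of 1157.68, wider than 99.4% of all WT peaks. In HD it was a pair of peaks, at 37978636 to 37982485 (3850 bp, score 808.35) and at 37983505 to 37985533 (2029 bp, score 153.27), with 1019 bp between them. Together the HD peaks covered 5879 bp. Of the 1422 bp that HD covered less than WT, 1019 bp were thus the space between them. Regions 26, 27 and 28 formed the densest run of strong mark in the locus, with gaps of 1.92 to 4.26 kb between the joined regions.

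Region 6, at 37302390 to 37308077, was the strongest in the left part. WT had a peak of 4033 bp (score 1455.83) and, 12 bp further, a peak of 1643 bp (score 84.16). HD had a peak of 3941 bp (score 2281.54) and, 28 bp further, a peak of 921 bp (score 83.56). Both libraries thus placed a break near the same point, with a strong peak on its left and a weak one on its right. Region 12, at 37802366 to 37804733, held 1 peak in each library, 2368 bp wide with a score of 1318.24 in WT and 2115 bp wide with a score of 1312.92 in HD, and both peaks ended on the same base.

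Peaks were spread unevenly along the locus. Joining regions less than 50 kb apart gave 6 groups. The leftmost, regions 1 to 3, spanned 21.8 kb and was weak throughout. Region 1, at 37098942 to 37099667, was called in HD only, 726 bp wide with a score of 65.9. Region 2, at 37112108 to 37113282, scored 52.00 in WT and 61.52 in HD, and region 3, at 37119721 to 37120790, scored 61.79 and 99.45. The WT peak of region 2 was thus close to the lowest score that the list holds.

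Regions 4 and 5 each stood alone, more than 50 kb from any other region, and both were wider in HD. Region 4, at 37179301 to 37181768, covered 1812 bp in WT (score 158.23) and 2088 bp in HD (score 164.26). Region 5, at 37248982 to 37250954, covered 1769 bp (score 241.86) and 1973 bp (score 283.52). The strong region 6 followed region 5 after 51.6 kb in WT and 51.7 kb in HD.

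The fourth group ran over 123 kb from region 6 to region 9. Region 8, at 37376179 to 37378384, was of middle strength, 2189 bp wide with a score of 501.07 in WT and 2108 bp with a score of 502.09 in HD. Region 9, at 37424131 to 37425507, was weaker, 1235 bp (score 93.06) in WT and 1289 bp (score 153.35) in HD. Between regions 6 and 8 lay region 7, at 37337261 to 37338767, a peak of 1507 bp called in WT only. Its score of 132.83 was the highest of the WT members without a counterpart, and it lay 29.7 kb from any HD peak.

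Few peaks were called in the middle of the locus. From the end of region 9 to the start of region 12, the HD list had no peak over 377 kb, the widest gap between members in either list. The WT list had 2 peaks there, both without a counterpart. Region 10, at 37560316 to 37561365, was 1050 bp wide with a score of 54.17, at 135 kb from the closest HD peak. Region 11, at 37607037 to 37608046, was 1010 bp wide with a score of 126.23, narrower than all but 4.59% of WT peaks, and lay 182 kb from the nearest HD peak. They divided the WT stretch into gaps of 135, 45.7 and 194 kb.

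The last group, regions 12 to 29, took up 200 kb, 21.7% of the window, and held 11 of the 22 WT peaks and 18 of the 27 HD peaks. HD thus had more peaks than WT within this group and fewer outside it, where WT had 11 peaks and HD 9. With equal numbers of top scoring peaks from each list, the whole window held 22 WT and 23 HD peaks. The group held 7 of the 8 HD peaks without a counterpart and 1 of the 4 WT ones. Its 18 regions were a median of 6.15 kb apart. Region 13, at 37814757 to 37816311, followed region 12 within 10.1 kb and scored 170.29 in WT and 244.39 in HD. Region 29, at 38000899 to 38002814, closed the group and was weak for its width, 1830 bp with a score of 75.31 in WT and 1859 bp with a score of 97.64 in HD.

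**Figure D2:**
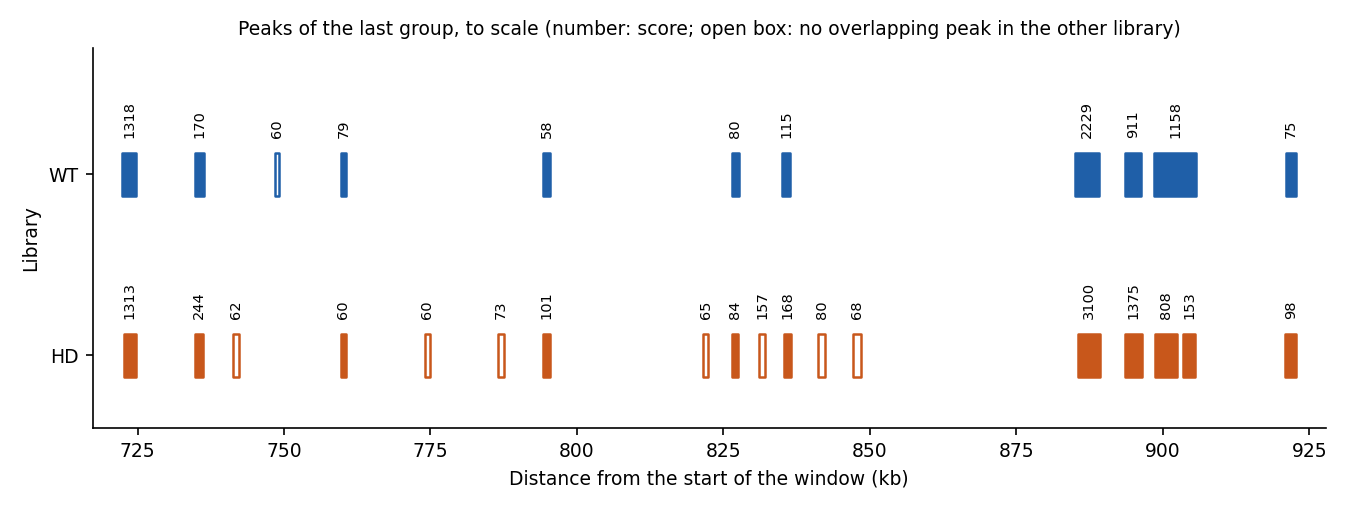
Boxes show the 11 WT and 18 HD peaks of regions 12 to 29 to scale, against the distance from the start of the window (kb), with each peak's score above its box. Open boxes are the 1 WT and 7 HD peaks with no overlapping peak in the other library, and all 8 lie between the filled boxes of region 13 and region 26.

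Between regions 13 and 26 lay 149 kb with a row of small peaks only, a stretch singled out after its values were seen. WT had 5 peaks there, 697 to 1359 bp wide with scores of 58.24 to 115.22. HD had 11 peaks, 811 to 1293 bp wide with scores of 59.55 to 168.1. The HD peaks covered 11482 bp of this stretch and the WT peaks 5340 bp. They fell into 12 regions, of which 4 were shared, 7 were called in HD only and 1 in WT only.

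The shared ones were region 16, at 37839672 to 37840633 (scores 79.17 in WT and 59.55 in HD), region 19, at 37874244 to 37875435 (58.24 and 100.55), region 21, at 37906401 to 37907638 (79.7 and 84.07), and region 23, at 37915076 to 37916564 (115.22 and 168.1). Their peaks all scored in the lowest 25% of their own list. The highest placed were those of region 23, above 17.3% of the WT list and 22.6% of the HD list. The WT-only region 15, at 37828474 to 37829170, was 697 bp wide, the narrowest WT member, and scored 60.1. It lay 6.15 kb from the nearest HD peak, so the 2 libraries had small peaks close by but not at the same place.

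The HD-only peaks of this stretch were 811 to 1291 bp wide. Region 14, at 37821262 to 37822324, scored 62.3, region 17, at 37854044 to 37854927, scored 59.8, and region 18, at 37866588 to 37867553, scored 72.87. The other 4 lay beside and between the shared regions 21 and 23. Region 20, at 37901565 to 37902375, scored 64.81 and region 22, at 37911152 to 37912120, scored 157.34. Region 24, at 37921112 to 37922377, scored 79.96 and region 25, at 37927110 to 37928400, scored 68.

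From region 20 to region 25 the HD list thus had 6 peaks in a row, with gaps of 4.14, 3.66, 3.15, 4.55 and 4.73 kb. In the same place WT had regions 21 and 23 alone, 7.44 kb apart. Region 22 lay between those and scored nearly as high in HD as its shared neighbour, region 23. With a score of 157.34, it was the strongest HD member without a counterpart, and the closest WT peak was 2.96 kb away.

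Set beside the whole lists, peaks without a counterpart made up a larger share of this locus. In WT they were 4 of 22, 18.2% (5.19 to 40.3%), where 5.50% of all WT peaks lack a counterpart. In HD they were 8 of 27, 29.6% (13.8 to 50.2%), where 9.30% of all HD peaks do. The immediate neighbours on chromosome 18 had 0 of 22 and 1 of 22 in WT, and 0 of 22 and 3 of 24 in HD. Since weak peaks lack a counterpart more often in both lists and the locus is rich in them, its counts were also read within classes of score.

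Among HD peaks with a score below 100, 7 of 13 in the window lacked a counterpart, 53.8% (25.1 to 80.8%), near the 50.5% of all HD peaks of such score. Among those with a score of 100 or more it was 1 of 14, 7.14% (0.181 to 33.9%), region 22, against 2.24%. That class holds many far stronger peaks in the whole list. Of the 1305 HD peaks that score within 1.25-fold of region 22, 12.0% lack a counterpart. Weak HD peaks of the locus thus lacked a counterpart at a share near that of weak HD peaks elsewhere.

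For WT peaks with a score below 100 the count was 2 of 10, 20% (2.52 to 55.6%), against 32.8% of such WT peaks in the whole list. With a score of 100 or more it was 2 of 12, 16.7% (2.09 to 48.4%), against 0.680%. These 2 are regions 7 and 11. Of the 1327 WT peaks that score within 1.25-fold of region 7, 6.03% lack a counterpart, and of the 1319 within 1.25-fold of region 11, 6.82% do. Both were singled out with their values known.

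**Figure D3:**
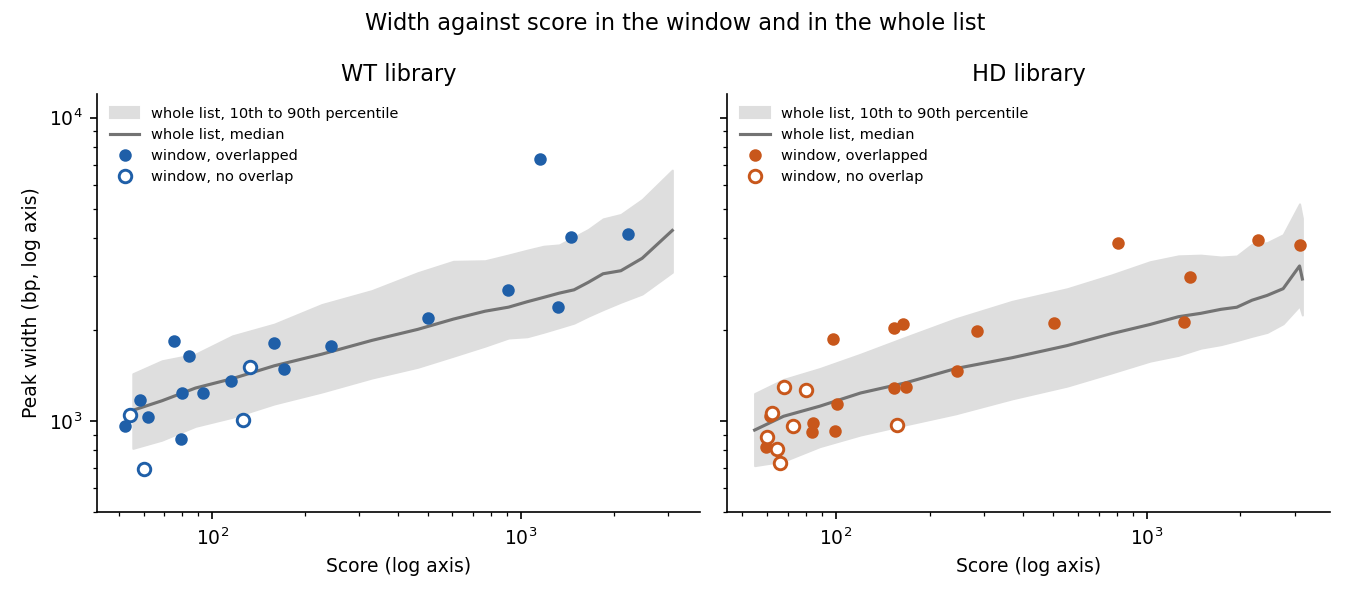
Peak width (bp) is plotted against the authors' score, both on log axes, for the 22 WT and 27 HD members (points) over the median and the 10th to 90th percentile range of the whole list (line and band). The open points, without a counterpart, gather at low scores with widths of 697 to 1507 bp in WT and 726 to 1291 bp in HD, and the WT point at 7301 bp is region 28.

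Width followed score as it does in the whole list. Spearman's rho between them was 0.83 over the 22 WT members and 0.82 over all WT peaks, and 0.85 over the 27 HD members and 0.82 over all HD peaks; width and score come from the same reads. WT peaks without a counterpart had a median width of 1030 bp and a median score of 93.2, and those with one 1706 bp and 137. For HD these were 968 bp and 66.9, against 1859 bp and 164. Some members lay towards the wide or the narrow side of this relation, and those named here were picked by their values. Some peaks of any list lie as far out, and whether the members did so more often was not tested. The WT peak of region 28 was wider than 99.6% of WT peaks within 1.25-fold of its score, and the larger HD peak there wider than 97.4% of such HD peaks. Region 29 was wider than 95.4% of WT and 95.8% of HD peaks of like score. The smaller HD peak of region 28 was wider than 94.7% of such HD peaks. The HD peak of region 4 was wider than 94.2% and the larger HD peak of region 6 wider than 91.4%. The larger WT peak of region 6 was wider than 89.8% of WT peaks of like score. On the narrow side, the WT peaks of regions 15, 11 and 16 were wider than 2.83%, 7.13% and 7.62% of WT peaks of like score, and the HD peaks of regions 1 and 22 wider than 8.75% and 11.3% of HD ones.

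Spacing was uneven, and clearly shorter than in the whole list only in HD. The median gap between neighbouring peaks was 31.0 kb (10.1 to 48.5 kb) over 21 gaps in WT and 10.8 kb (4.55 to 26.2 kb) over 26 gaps in HD, against 47.3 kb and 43.4 kb in the whole lists. Gaps below 20 kb made up 9 of 21 in WT, 42.9%, and 18 of 26 in HD, 69.2%, against 28.1% and 30.6% in the whole lists. The WT interval held the median of the whole WT list. The median gaps of the neighbouring windows were 20.5 and 26.9 kb in WT and 20.5 and 17.5 kb in HD. The window's median was thus above both in WT and below both in HD, with overlapping intervals. The shorter HD median rested on weak peaks such as the row between regions 13 and 26: when peaks below a score of 100 were left out of both lists, the medians were 48.5 kb in WT and 45.8 kb in HD.

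At the other end, each list had 5 gaps of 50 kb or more. The first 3 were shared: 58.5, 67.9 and 51.6 kb in WT, and 58.9, 67.2 and 51.7 kb in HD, around regions 4 and 5. The other 2 differed with the WT-only peaks. In WT they were the 135 and 194 kb gaps beside regions 10 and 11, and in HD they were the 377 kb gap and 68.8 kb where region 7 had no HD peak.

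**Figure D4:**
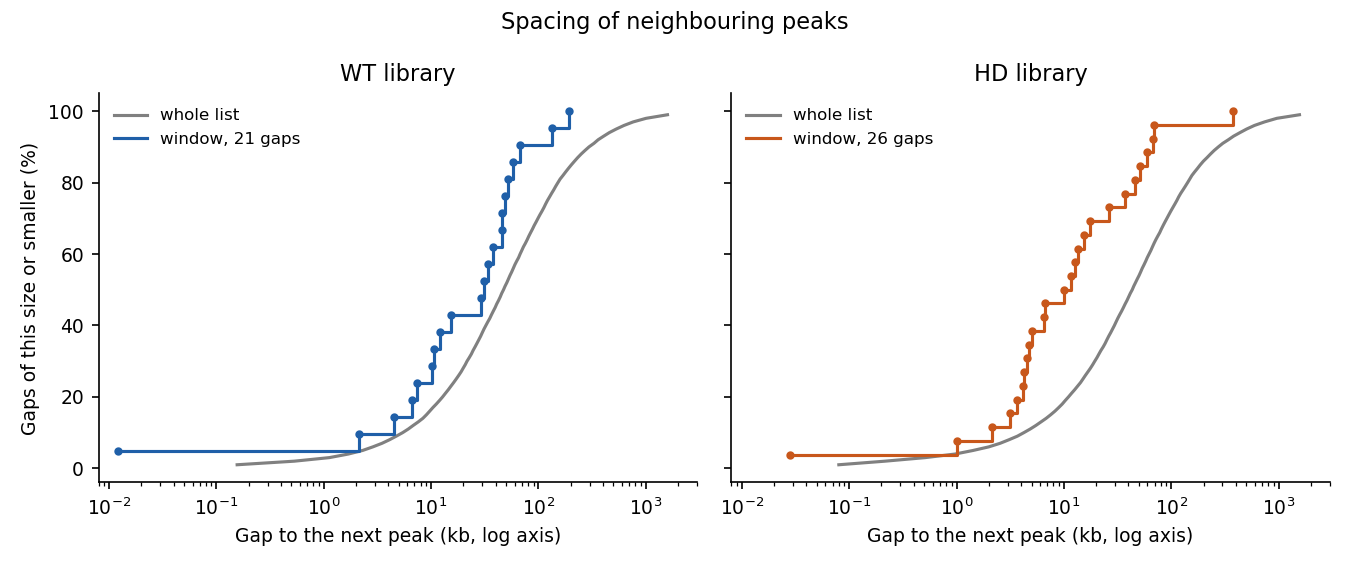
The curves give the share of gaps (%) at or below each size (kb, log axis), in colour for the 21 WT and 26 HD gaps of the window and in grey for each whole list. Both coloured curves lie to the left of the grey ones, with medians of 31.0 and 10.8 kb against 47.3 and 43.4 kb, and the HD curve ends at its single gap of 377 kb.

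At the edges of the window, no peak straddled either limit. The last peak before it ended at 36962890 in WT (score 787.59) and at 36962772 in HD (score 513.26), 149 and 136 kb from the first member. Just inside were the WT peak of region 2 and the HD peak of region 1, described above. On the right, region 29 was the last member, and the next peak began at 38038940 in WT (score 211.16) and at 38039189 in HD (score 198.55), 36.1 and 36.4 kb away. The stretch without called peaks on the left was thus wider than the 50 kb that separated groups, and that on the right was not. The right stretch was also shorter than the median gap of the whole lists, 47.3 kb in WT and 43.4 kb in HD. The next peak on the right would therefore join the last group if the window were wider.

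In the 17 regions marked in both libraries, the covered length hardly differed. It summed to 39140 bp in WT and 36632 bp in HD. On the log2 scale, the median ratio of HD to WT was -0.05 (-0.16 to 0.06), 3.70% less in HD, and that over all 17367 shared regions was -0.09, 6.04% less. HD was shorter in 11 of the 17 (64.7%) and longer in 6, where 69.0% of all shared regions were shorter. No region differed by more than 1.5-fold, a size that 2.79% of all shared regions pass as shorter in HD and 0.749% as longer.

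The largest losses and gains were small. Region 21 covered 1238 bp in WT and 982 bp in HD, a log2 ratio of -0.33. Region 28, with its divided HD peak, had -0.31 and region 6, from 5676 to 4862 bp, had -0.22. The largest gains were 0.20 in region 4, 0.16 in region 5 and 0.15 in region 27. Losses were thus found in strong and weak regions alike, and 2 of the 3 gains belonged to the isolated regions left of region 6.

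Edges were compared in the 15 regions where each library had a single peak. There the HD left edge lay to the right of the WT edge by a median of 98 bp, as in the whole list, where this was 62 bp. The HD right edge also lay to the right, by a median of 37 bp, whereas in the whole list it lay inward, at -64 bp. Both edges were shifted to the right in 7 of the 15 regions, 46.7%, against 21.7% of 16873 regions in the whole series, and both to the left in 4, 26.7%, against 22.5%.

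The rightward shifts were those of regions 2, 3, 4, 8, 9, 23 and 26. In region 4 the left edge moved by 380 bp and the right edge by 656 bp, and in region 26 by 488 and 158 bp. Regions 13, 16, 19 and 29 had both edges to the left, by 18 to 139 bp. Both HD edges moved inward in 1 of 15 regions, region 21, against 42.4% in the whole series. Shifts of both edges in the same direction were also common in the whole series, 21.7% to the right and 22.5% to the left. A shifted peak could be shorter in HD, as in region 26, or longer, as in region 4. The edge shifts were not compared within classes of score. With 15 regions of 1 library each, they have no replicate check.

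**Figure D5:**
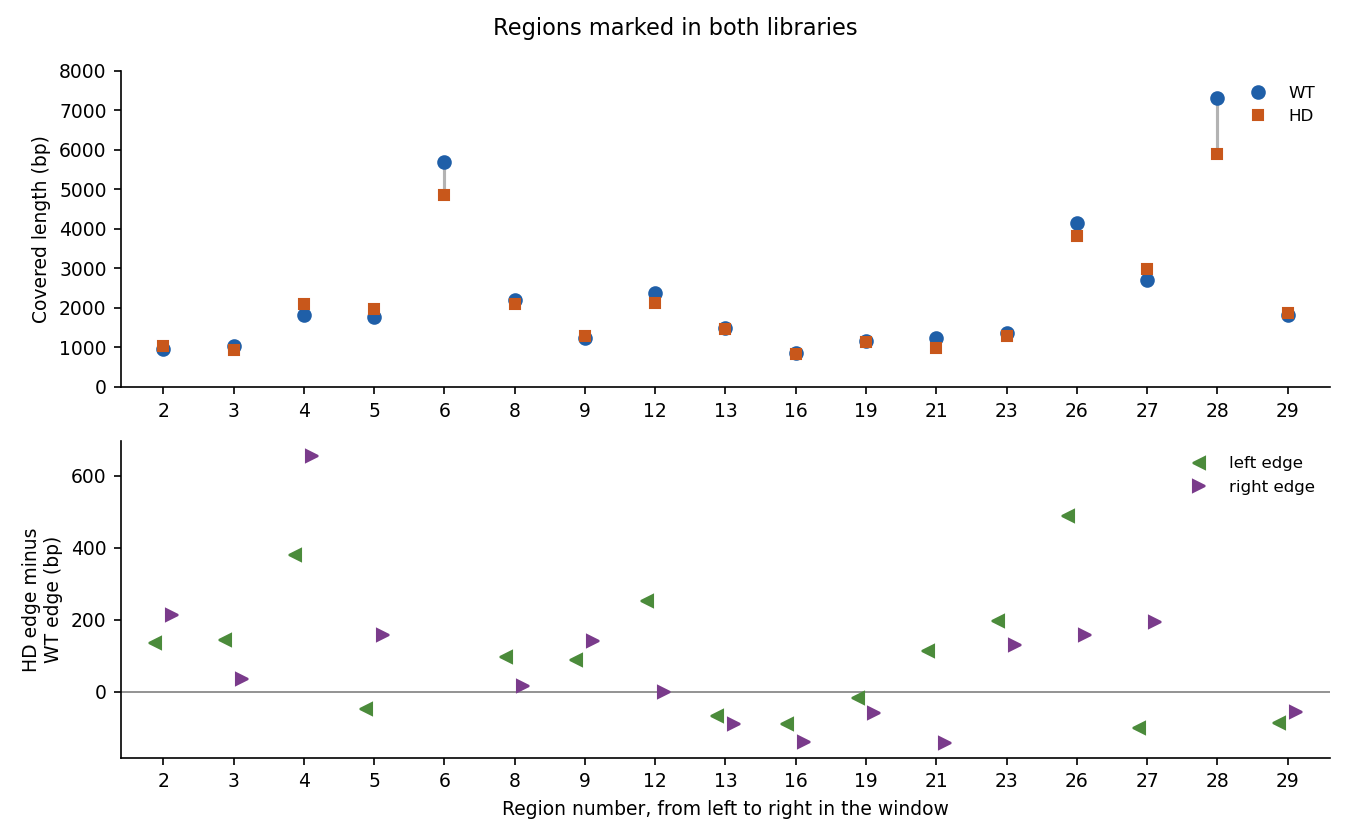
The upper panel gives the length (bp) covered by WT peaks (circles) and HD peaks (squares) in each of the 17 shared regions, and the lower panel the HD minus WT position (bp) of the left and right edges in the 15 regions with 1 peak of each library, where values above 0 lie to the right. Region 28 has the widest difference in length, 7301 against 5879 bp, and region 4 the largest edge shift, 656 bp.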

How the data were processed

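Per the labels, chromatin from formaldehyde-crosslinked hippocampus was precipitated with an antibody against H3K4me3, and reads were single ends of 50 bp. Per the submitters' processing notes, the tools were SAMtools, BWA 0.5.9 and CASAVA 1.8.2, and the builds NCBIM37 and mm9 (2 names of 1 assembly). The authors deposited 1 peak list per library with a score per peak; peak names carry MACS, and for its version, settings and control the entry is: not given in the sources used here. Starts, counted from 0 in the files, were changed to count from 1. A counterpart was an overlap of at least 1 bp. Regions, gaps, edge shifts and covered lengths were computed with scipy 1.17.1, pandas 2.3.3 and numpy 2.4.6 under Python 3.11.15, and figures with matplotlib 3.10.9. The code was tested on simulated data. Tiles were assigned by peak midpoint. All 29 regions are named, with full values for the widest, strongest, library-specific and most changed. The window, the lists and this rule were chosen with earlier results of these data known. Planned gene lists were not analysed, for lack of an mm9 annotation. The alternatives are given in the closing section.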

Additional observations from a re-analysis of the deposited data

How the results depend on the processing

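Of 68 alternative values, 57 stayed within 1.5-fold of a count or within the interval of a median. The 57 include the WT peak number and WT medians under equal numbers of top scoring peaks. Those could not move, since WT is the shorter list and was kept whole. All alternatives were planned. Leaving out peaks below a score of 100 from both lists changed most: 12 WT and 14 HD peaks were left, 2 WT and 3 HD peaks had no counterpart, and the HD medians became 2058.5 bp for width, 45.8 kb for gaps and 264 for score. The WT medians became 2000.5 bp, 48.5 kb and 371. These follow from leaving out the weak peaks. With that minimum in the list counted and counterparts of any score, 2 WT peaks and 1 HD peak had none. Separating groups at 25 kb gave 12 groups and at 100 kb 3 groups, instead of 6. Other overlap rules gave 4 WT and 8 or 9 HD peaks without a counterpart, and equal numbers of top scoring peaks gave 6 and 6, among 22 WT and 23 HD members. The median log2 length ratio ranged from -0.06 to -0.04. No paired analysis was possible, since there is a single library for either genotype. Depth is unknown, which limits what the absence of a weak peak tells.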
